A study of Mus musculus with 12 samples.

Results

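The genes described here serve protein folding in the endoplasmic reticulum (ER) and the response to unfolded protein there. They were chosen by name, 32 symbols in all, and found in the deposited table through the Ensembl identifiers of the GENCODE vM21 annotation of the mouse genome build GRCm38 (mm10). The 32 symbols led to 33 of the table's 55401 identifiers, because Ddit3 has a second one, of 105 exon bases inside the main Ddit3 gene, which was at 0 in every library. The other 32 identifiers, 1 for each symbol, all reached a normalized count of 10 in at least 3 libraries and were tested among 18274 genes. A normalized count is the number of reads counted in a gene divided by a size factor of its library.

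Wild-type mice carried tumours of B16-OVA, a mouse melanoma line with the gene of chicken ovalbumin. There were 4 groups of 3 libraries each: untreated, fusion protein (20 mcg given on day 10, then 10 mcg on day 14), 20 Gy of radiation (day 10), and combined, which received the radiation and both doses of the protein. Tumours were taken on day 17, and living cells positive for CD45, the surface protein of leukocytes, and for CD11c, an integrin found on dendritic cells and on many macrophages, were sorted and their RNA sequenced. The composition of the fusion protein is not given in the sources used here, and no label ties the libraries of a group to separate mice, so the spread behind each p-value may be technical.

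The ER folds proteins that are to be secreted or placed in membranes. When unfolded protein builds up, 3 sensors in its membrane, PERK (Eif2ak3), IRE1 (Ern1) and ATF6 (Atf6), start the unfolded protein response. PERK slows translation while favouring that of the transcription factor ATF4, whose targets include Ddit3 (CHOP), Trib3, Chac1 and Asns. IRE1 splices the mRNA of Xbp1, and XBP1 and ATF6 raise chaperones and the machinery that degrades misfolded ER proteins. In dendritic cells, the IRE1 and XBP1 arm is known for its part in survival and antigen presentation. The data are gene totals, so the spliced form of Xbp1, phosphorylated sensors and cleaved ATF6 were not measured.

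Between 14462032 and 23985496 reads fell in genes in each library, and the 32 genes took 0.524% to 0.918% of them. All 18 markers on the list of conventional dendritic cells and CD11c used here had a read in every library, Itgax, which encodes CD11c, among them, at 2226 to 9497 normalized counts. The list takes in Sirpa, Itgam, H2-Aa, H2-Ab1 and Cd74, so its sum is not a measure of dendritic cells alone. Genes listed as markers of other cells also had reads. Of the 10 melanoma markers, 6 had a read in every library. The 10 summed to 161 to 692 normalized counts in the libraries numbered 1 and 2. In the libraries numbered 3 they summed to 2663 (untreated), 6749 (fusion protein), 21859 (20 Gy) and 2121 (combined). The 16 B and plasma cell markers went the other way, with 578, 1213, 1047 and 7011 in the same 4 libraries and 11803 to 30921 in the other 8. Of 1754 genes for odour, pheromone and trace amine-associated receptors, 79.0% had a read in 20 Gy library 1 and 59.0% in 20 Gy library 2. The share was 57.7% in combined library 1 and 39.7% in combined library 3, against 4.79% to 25.5% in the other 8. In these bulk libraries, fewer cells of a type and less RNA per cell cannot be told apart.

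The promoters of the group show the DNA elements through which the response is known to act, and 27 of the 32 genes had a promoter in the RefSeq table (build GRCm38.p6). Each window spanned 300 bases, from 250 before to 50 after the annotated start. The ER stress element (ERSE), to which ATF6 and XBP1 are known to bind together with NF-Y, was searched as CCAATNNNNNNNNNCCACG on both strands. It was present in 9 of the 27 windows, and in 39 of all 32851 windows of the table (0.119%). Its relative ERSE-II, which is ATTGG, 1 base of any kind and CCACG, was in 2 of the 27 (Herpud1 and Dnajb11) and in 0.0365% of all. The element of ATF4 and its partners (CARE), searched as TGATGNAA, was in 4 of the 27, Chac1, Trib3, Asns and Herpud1, and in 3.97% of all. The element UPRE, TGACGTGG, was in 0 of the 27 and in 0.676% of all. ERSE and ERSE-II both end in CCACG, which alone was in 21 of the 27 and in 32.8% of all, so their matches are also matches to it. The genes' windows had a median GC content of 62.3% against 52.7% over all windows. The genes were chosen by name for their part in this response, so their shares of these elements are a description and not a test. A match is a run of letters and does not show that a factor was bound in these cells.

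The 250 bases before the start are shown for 6 genes, 5′ to 3′ on the gene's strand, with the fixed letters of ERSE, ERSE-II and CARE matches in capitals. Hspa5 (chr2:34771840-34772089 on the plus strand) and Hsp90b1 (chr10:86705445-86705694 on the minus strand) stand for the chaperones with ERSE, 1 match in the former and 2 in the latter. Herpud1 (chr8:94386179-94386428 on the plus strand) holds both ERSE-II and CARE. Chac1 (chr2:119350992-119351241 on the plus strand) and Asns (chr6:7693210-7693459 on the minus strand) stand for the ATF4 targets, whose values varied most between libraries. Ddit3 (chr10:127290543-127290792 on the plus strand) is shown because it changed when library numbers were fitted, and it has no exact match to these 3 elements.
Hspa5: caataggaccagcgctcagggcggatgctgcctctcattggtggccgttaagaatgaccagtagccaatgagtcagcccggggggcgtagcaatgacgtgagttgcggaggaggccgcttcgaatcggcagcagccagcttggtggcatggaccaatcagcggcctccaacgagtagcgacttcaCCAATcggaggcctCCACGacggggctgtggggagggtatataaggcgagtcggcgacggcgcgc
Hsp90b1: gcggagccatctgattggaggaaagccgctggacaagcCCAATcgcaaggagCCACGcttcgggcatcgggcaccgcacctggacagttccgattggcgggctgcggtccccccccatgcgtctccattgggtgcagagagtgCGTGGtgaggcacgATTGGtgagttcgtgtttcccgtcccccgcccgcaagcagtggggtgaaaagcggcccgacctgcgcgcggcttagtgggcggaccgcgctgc
Herpud1: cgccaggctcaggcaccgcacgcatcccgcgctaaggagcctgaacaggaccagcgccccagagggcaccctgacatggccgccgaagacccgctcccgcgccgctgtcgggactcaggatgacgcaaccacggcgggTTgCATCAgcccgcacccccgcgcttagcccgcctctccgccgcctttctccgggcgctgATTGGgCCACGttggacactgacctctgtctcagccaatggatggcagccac
Chac1: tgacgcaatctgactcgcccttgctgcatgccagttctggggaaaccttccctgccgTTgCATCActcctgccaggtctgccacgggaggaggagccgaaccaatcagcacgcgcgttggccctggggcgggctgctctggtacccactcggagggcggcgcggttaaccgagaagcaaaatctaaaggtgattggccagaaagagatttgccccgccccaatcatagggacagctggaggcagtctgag
Asns: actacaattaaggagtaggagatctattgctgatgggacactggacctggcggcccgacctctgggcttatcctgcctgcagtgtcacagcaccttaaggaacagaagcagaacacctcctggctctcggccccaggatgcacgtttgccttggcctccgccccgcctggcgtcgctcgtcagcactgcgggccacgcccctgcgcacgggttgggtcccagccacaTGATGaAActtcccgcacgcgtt
Ddit3: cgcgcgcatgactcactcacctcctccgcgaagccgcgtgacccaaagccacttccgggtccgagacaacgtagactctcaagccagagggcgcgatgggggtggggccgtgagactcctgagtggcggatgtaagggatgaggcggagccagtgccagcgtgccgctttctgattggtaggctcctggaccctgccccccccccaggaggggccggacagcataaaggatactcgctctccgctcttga

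The ERSE matches of the other 7 genes are given as the 19 bases of the site alone, read on the gene's strand, where a site on the opposite strand begins with CGTGG and ends with ATTGG.
Calr: CGTGGtcgaccctcATTGG
Canx: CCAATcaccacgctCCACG
Dnajc3: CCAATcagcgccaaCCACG
Creld2: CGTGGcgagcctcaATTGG
Pdia6: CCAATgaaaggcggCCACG
Derl3: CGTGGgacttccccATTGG
Syvn1: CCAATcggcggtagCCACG
Chaperones and their helpers (Calr, Canx, Dnajc3, Creld2), a disulfide isomerase (Pdia6) and degradation genes (Derl3, Syvn1) share the element, and the 9 spacer bases differ from gene to gene. With up to 1 mismatch outside the spacer the element was found in 14 of the 27 windows and in 1.50% of all. Ddit3, Pdia3, Pdia4, Sel1l and Herpud1 were then added.

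In 2 genes the match lay after the start annotated in RefSeq, CARE in Trib3 (chr2:152344030-152344055, minus strand) and ERSE-II in Dnajb11 (chr16:22857843-22857871, plus strand). In GENCODE, Trib3 starts at 152344032 on the minus strand, and its CARE bases lie before that start. These sites are shown with 9 bases on either side.
Trib3: agctcaggtTTaCATCAgccgggcgg
Dnajb11: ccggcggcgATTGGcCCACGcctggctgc

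Levels within the group spanned almost 3 orders of magnitude. Per kilobase of exon, the untreated means were highest for Hspa5, which encodes BiP, the main HSP70 of the ER (5494 normalized counts per kb), and for Calr, the lectin chaperone calreticulin (5437). Ppp1r15a, the GADD34 subunit that lets translation resume (3829), Hsp90b1, the HSP90 of the ER (2847), Pdia3, the disulfide isomerase of the lectin cycle (2537), and Atf4 (2418) followed. The sensors were lower, at 295 for Atf6, 294 for Ern1 and 252 for Eif2ak3. Chac1, which breaks down glutathione (29.4), Trib3, a pseudokinase that binds ATF4 (20.7), Asns, asparagine synthetase (13.1), and Derl3, a channel component of ER degradation (6.02), were lowest. Many neighbours in this order did not differ beyond their spread: Hspa5 and Calr had untreated means of 23232 ± 17363 and 15658 ± 7826 normalized counts (SD, n = 3, not divided by length).

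**Figure D1:**
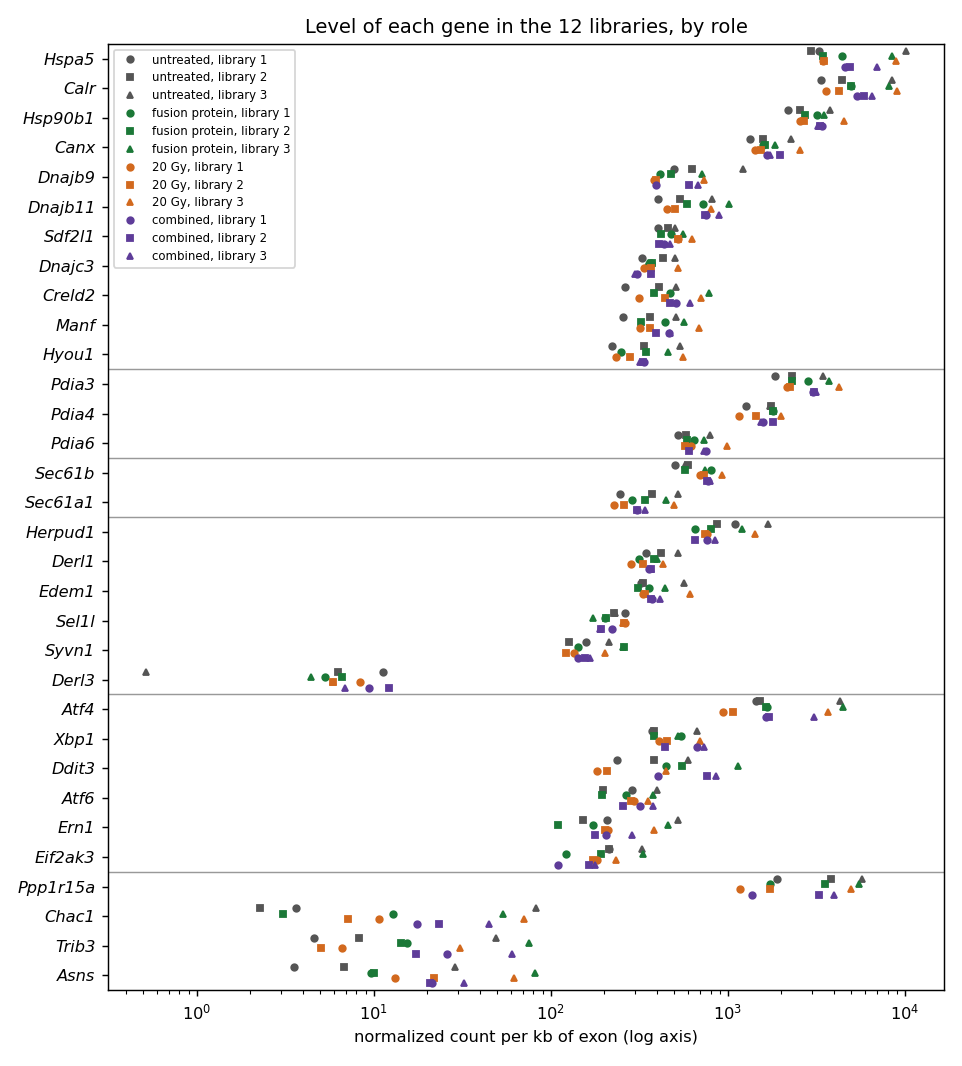
Normalized count per kb of exon (log axis) of the 32 genes in the 12 libraries, grouped by role, with colour for the treatment group and marker shape for the library number. Hspa5 and Calr lie at the right and Derl3, Asns, Trib3 and Chac1 at the left, and for these last 3 genes the libraries numbered 3 lie apart from the others.

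Each treatment was compared with untreated, and the combined treatment with each single one, by limma on log2(normalized count + 1) over all 12 libraries, with adjustment over all 18274 genes at 0.05. None of the 32 genes passed in any of these 5 comparisons, nor in the interaction of radiation and fusion protein. For the fusion protein against untreated, 0 of 32 passed, where 0.744% of all genes did. For 20 Gy against untreated, 0 of 32 passed and 0.0% of all genes. For combined against untreated, 0 of 32 passed and 1.4% of all genes. For combined against 20 Gy, 0 of 32 passed and 1.03% of all genes. For combined against fusion protein and for the interaction, 0 of 32 passed and 0.0% of all genes in each. These comparisons share libraries, so they are not independent of each other.

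At an unadjusted limma p under 0.05 the count was 1 of 32 for fusion protein against untreated (8.41% of all genes), 1 for 20 Gy (6.74%), 1 for combined against untreated (12.5%), 2 for combined against 20 Gy (8.99%), and 0 for combined against fusion protein (2.92%) and for the interaction (1.03%). The quasi-likelihood test of edgeR and DESeq2, run on the read counts, also called 0 of 32 in each of the 5 comparisons and the interaction. Over all genes edgeR called 0.602%, 0.0%, 1.09%, 0.832%, 0.0% and 0.0%, in the same order, and DESeq2 called 2.54%, 0.246%, 4.13%, 3.01%, 0.0% and 0.00547%. The median log2 fold change of the 32 genes was 0.11 for fusion protein, 0.038 for 20 Gy and 0.12 for combined against untreated, beside −0.0051, 0.036 and 0.016 over all genes. For combined it was 0.069 against 20 Gy and 0.060 against fusion protein, beside −0.017 and 0.033. Fold changes above 0 were found in 19, 18, 18, 21 and 21 of 32, in the same order, against 49.5%, 53.3%, 51.3%, 48.4% and 53.7% of all genes.

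The 95% intervals set what these data leave unmeasured. For Hspa5, the most widely used sign of ER stress, the log2 fold change was 0.12 ± 0.52 (SE) with the fusion protein (interval −1.02 to 1.27), 0.036 ± 0.52 after 20 Gy (−1.11 to 1.18) and 0.22 ± 0.52 with both (−0.93 to 1.37). Intervals were narrower for steadier genes, such as −0.052 to 0.73 for Sec61b with the fusion protein, and wider for the low ATF4 targets, such as −2.45 to 3.39 for Chac1. A doubling of Hspa5 (a log2 of 1) lies inside each of its 3 intervals. With the library number, 1 to 3 in each group, as a block in limma they were −0.35 to 0.59, −0.44 to 0.51 and −0.25 to 0.69 in the same order, and a doubling lies outside each of them. These narrower intervals hold only if the number shifts every group alike. With both treatments, Hspa5 was above untreated at numbers 1 (19429 against 13962) and 2 (20792 against 12472) but below at number 3 (29349 against 43263).

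**Figure D2:**
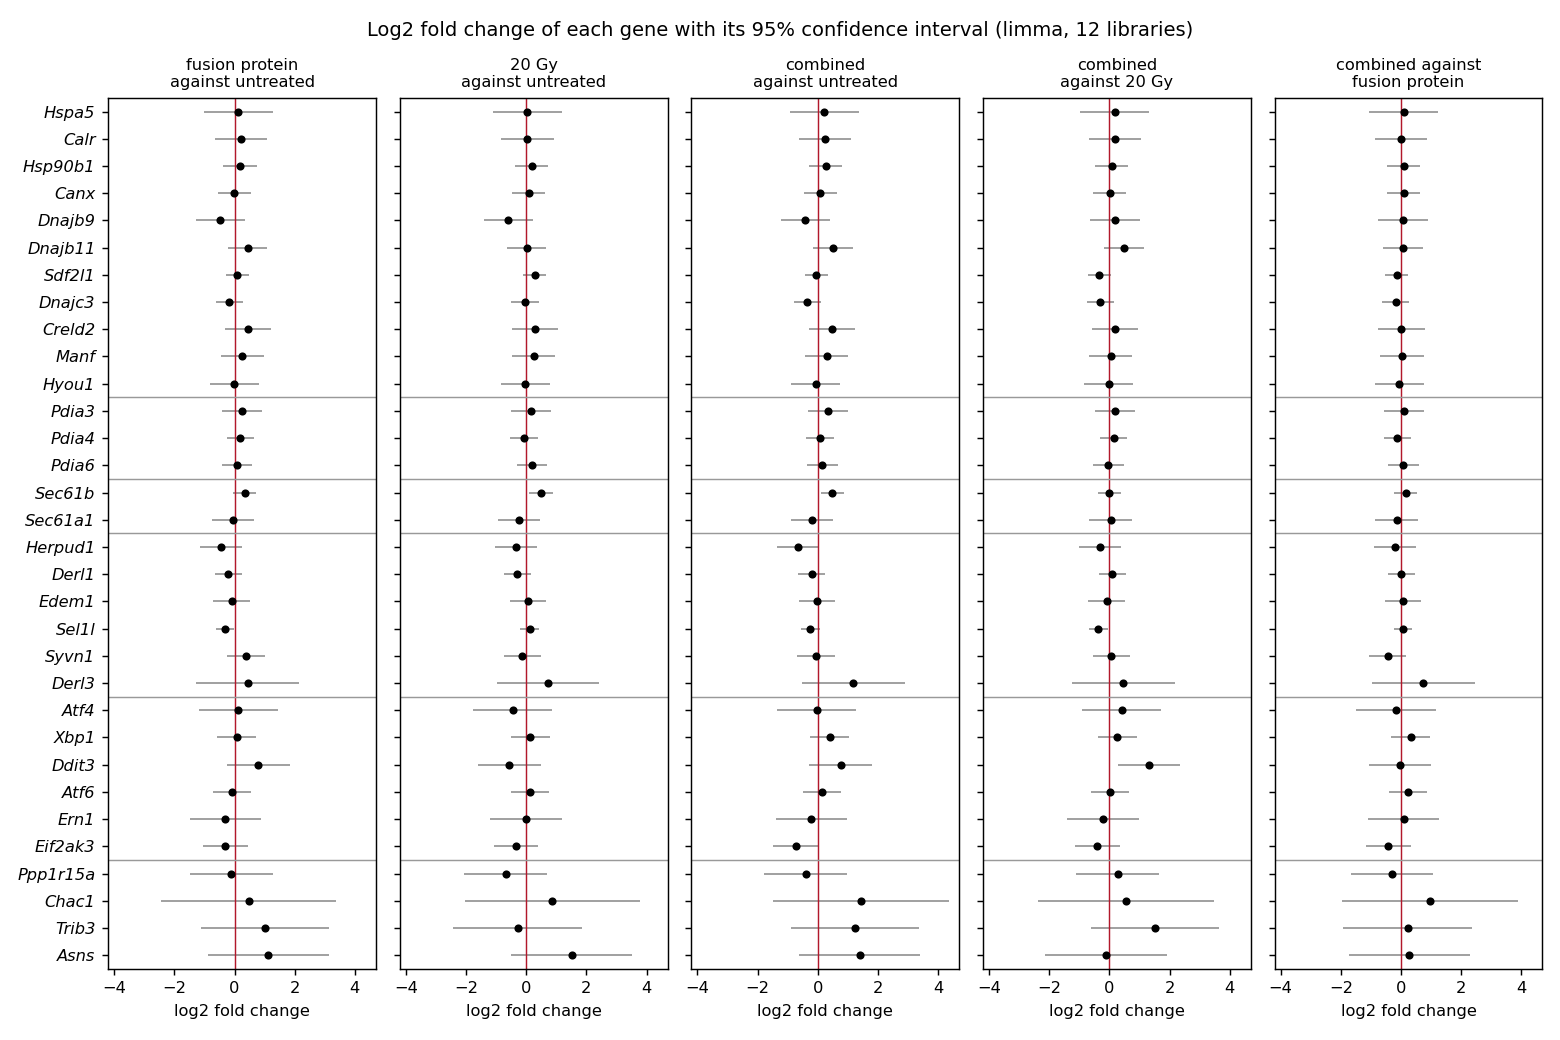
Log2 fold change (points) with its 95% confidence interval (bars) from limma for each of the 32 genes, one panel for each comparison and one row for each gene by role. The intervals of nearly all genes cross 0, and those of Chac1, Trib3, Asns and Derl3 are the widest.

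Library numbers 1 to 3 recur in every group, and libraries of the same number mostly deviated together from their group means. The exception was 20 Gy library 2, which did so weakly or hardly at all with untreated and combined library 2 (the correlations are given with the processing). With the number as a block in limma, 1 of 32 genes was called for the fusion protein against untreated (3.29% of all genes), 0 for 20 Gy (0.383%), 3 for combined against untreated (7.73%) and 0 for combined against fusion protein and for the interaction (0.0% each). For combined against 20 Gy, where the numbers were not taken to pair the libraries, it was 1 of 32 with the block (4.56%), Ddit3. The genes called in the comparisons with untreated were Ddit3, higher, and Herpud1 and Eif2ak3, lower. The shares called are close to the background where any gene was called.

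Ddit3 (chr10:127290774-127296288, plus strand) encodes CHOP, a transcription factor that ATF4 raises and that favours cell death in prolonged stress. Its normalized counts were 405, 655 and 1027 in the untreated libraries, 771, 947 and 1948 with the fusion protein, 314, 356 and 766 after 20 Gy and 695, 1305 and 1472 with both. At each library number the value with the fusion protein was above the untreated one and the combined value above the 20 Gy one, while the groups overlapped. The log2 fold change was 0.79 ± 0.47 (SE) for fusion protein against untreated (limma adjusted p = 0.772, and 0.0336 with the block) and 0.76 ± 0.47 for combined against untreated (adjusted p = 0.577, and 0.025 with the block). After 20 Gy alone it was −0.56 ± 0.47 (limma adjusted p = 0.821), lower at 3 of 3 numbers. For combined against 20 Gy it was 1.32 ± 0.47, higher at 3 of 3 numbers (limma adjusted p = 0.362, and 0.00122 with the block).

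The blocked call of Ddit3 for combined against 20 Gy held in 12 of 12 fits that left out 1 library each, with limma adjusted p from 0.00109 to 0.00778 and log2 fold changes from 1.11 to 1.49 (1.32 with all libraries). Fits without an untreated or fusion protein library left the fold change at 1.32, since neither group is in this comparison. The library numbers were not taken to pair the libraries here. Without the block, 0 of 12 such fits called Ddit3 (limma adjusted p from 0.174 to 0.815). Its blocked calls against untreated were lost without single libraries. For the fusion protein the call was lost without untreated library 1, 2 or 3, fusion protein library 1 or 3, or combined library 1, with limma adjusted p from 0.0537 to 0.176 and log2 fold changes from 0.71 to 0.85. For combined against untreated it was lost without untreated library 1, 2 or 3 or combined library 1 or 2, with adjusted p from 0.0599 to 0.103 and log2 fold changes of 0.55 to 0.82. Summed levels of markers of other cells differed between the same groups. The 14 T and NK cell markers summed to 22741 to 42973 in untreated and 12689 to 29180 after 20 Gy, but to 66083 to 180808 with the fusion protein and 55350 to 91850 with both. Taken singly, 6 of the 14 had log2 fold changes above 0 for combined against untreated (median −0.25). For fusion protein against untreated it was 11 (median 0.55), and for combined against 20 Gy 11 (median 0.75). The 18 markers on the list of dendritic cells and CD11c summed to 132646 to 235733, 194389 to 231377, 66163 to 124438 and 106542 to 125722. The order, here and below, is untreated, 20 Gy, fusion protein and both. The 15 macrophage and monocyte markers summed to 13971 to 27267, 31685 to 34843, 25391 to 39771 and 29036 to 44324. Taken singly, 12 of the 15 had log2 fold changes above 0 for combined against untreated (median 0.68). For fusion protein against untreated it was 10 (median 0.45), and for combined against 20 Gy 5 (median −0.72). The 10 neutrophil markers summed to 131 to 2579, 3833 to 6738, 432 to 5671 and 2145 to 7532, and with the block limma called 8 of the 10 higher for combined against untreated. The 8 red cell markers summed to 7.49 to 969, 2606 to 3605, 4.05 to 479 and 134 to 499. The part of these cells in the Ddit3 values, and in those of Herpud1 and Eif2ak3, was not tested. Of the exon bases of Ddit3, 10.9% are shared with other genes, Mars among them.

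Herpud1 (chr8:94386438-94395377, plus strand) encodes HERP, a membrane component of the HRD1 ubiquitin ligase complex that ER stress induces. Its normalized counts were 2571, 2038 and 3951 in the untreated libraries, 1535, 1872 and 2808 with the fusion protein, 1780.2, 1740.1 and 3316 after 20 Gy and 1782, 1518 and 1988 with both. All 3 combined values lay below all 3 untreated ones. The log2 fold change for combined against untreated was −0.65 ± 0.32 (limma adjusted p = 0.45, and 0.0337 with the block), and it was −0.45 ± 0.32 with the fusion protein alone (adjusted p = 0.865). The blocked call was lost without untreated library 1 or 3 or combined library 2 or 3 (log2 fold change −0.69 to −0.47, limma adjusted p from 0.0761 to 0.151).

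Eif2ak3 (chr6:70844515-70905245, plus strand) encodes PERK itself. It stood at 1287, 1281 and 1988 in the untreated libraries, 734, 1163 and 1999 with the fusion protein, 1101, 1041 and 1416 after 20 Gy and 663, 989 and 1078 with both. Here too every combined value lay below every untreated one, and the fusion protein group overlapped with both. The log2 fold change for combined against untreated was −0.74 ± 0.34 (limma adjusted p = 0.408, and 0.0409 with the block). That call was lost without untreated library 1, 2 or 3, fusion protein library 2, or combined library 1 or 3 (log2 fold change −0.83 to −0.64, limma adjusted p from 0.0585 to 0.143). Against the fusion protein alone the combined treatment differed by −0.42 ± 0.34 (adjusted p = 0.99974). Of its exon bases, 8.05% are shared with Gm43292, and the strand setting of the counting is not given in the sources used here.

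The remaining transcription factors and sensors did not pass in any comparison, with or without the block. Atf4 (chr15:80255184-80257541, plus strand) was at 3393, 3578 and 10134 in the untreated libraries, 3943, 3867 and 10538 with the fusion protein, 2225, 2524 and 8737 after 20 Gy and 3868, 4021 and 7279.6 with both. Xbp1 (chr11:5520659-5525893, plus strand) was at 1218, 1251 and 2166 in the untreated libraries, 1779, 1246 and 1709.6 with the fusion protein, 1322, 1478 and 2256 after 20 Gy and 2184, 1438 and 2388 with both. Atf4 was highest in library 3 of each group, and in Xbp1 the groups overlapped throughout. Atf4 differed by −0.44 ± 0.60 after 20 Gy (limma adjusted p = 0.903), lower at 3 of 3 numbers, and by 0.13 ± 0.60 with the fusion protein. Xbp1 differed by 0.40 ± 0.30 for combined against untreated (limma adjusted p = 0.66) and by 0.33 ± 0.30 for combined against fusion protein, both higher at 3 of 3 numbers. Ern1, the IRE1 sensor and nuclease, ranged from 905 to 4280 over the 12 libraries, and Atf6 from 1795 to 3663.

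The targets of the PERK and ATF4 arm held the widest spread. Trib3 (chr2:152337422-152344032, minus strand) was at 9.73, 17.5 and 104 in the untreated libraries, 32.8, 30.4 and 160.4 with the fusion protein, 14.1, 10.7 and 65.4 after 20 Gy and 54.8, 37.0 and 128 with both. Chac1 (chr2:119351229-119354381, plus strand) was at 5.99, 3.74 and 134 in the untreated libraries, 21.2, 5.07 and 87.9 with the fusion protein, 17.6, 11.8 and 115 after 20 Gy and 28.8, 38.5 and 73.4 with both. Asns (chr6:7675169-7693254, minus strand) was at 9.73, 18.7 and 78.6 in the untreated libraries, 26.4, 27.4 and 222 with the fusion protein, 36.1, 60.0 and 170.1 after 20 Gy and 58.4, 56.6 and 88.9 with both. In all 3 genes library 3 was the highest of its group each time, and for Chac1 and Asns the untreated values were the lowest at numbers 1 and 2. Against untreated, Asns differed by 1.12 ± 0.92 with the fusion protein, 1.51 ± 0.92 after 20 Gy and 1.40 ± 0.92 with both (limma adjusted p = 0.907, 0.747 and 0.604), higher at 3 of 3 numbers each time. Trib3 differed by 1.01 ± 0.98, −0.28 ± 0.98 and 1.24 ± 0.98 in the same order (limma adjusted p = 0.945, 0.97 and 0.687), and by 1.51 ± 0.98 for combined against 20 Gy, higher at 3 of 3 numbers (adjusted p = 0.777). These folds are on the log2(value + 1) scale, which understates changes at such low counts. Ppp1r15a, the highest gene of this arm, ranged from 3464 in 20 Gy library 1 to 16818 in untreated library 3.

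**Figure D3:**
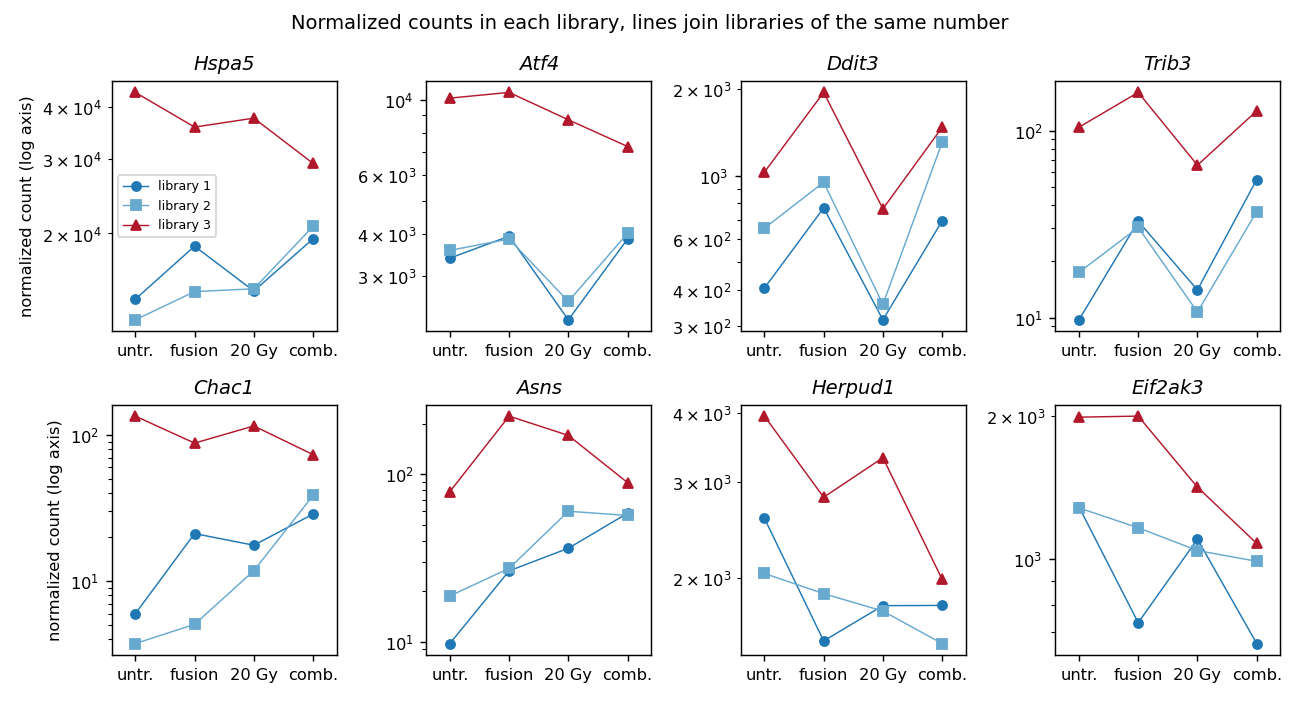
Normalized counts (log axis) of Hspa5, Atf4, Ddit3, Trib3, Chac1, Asns, Herpud1 and Eif2ak3 in the 4 groups, with lines joining libraries of the same number. Library 3 (triangles) is the highest in each group in all 8 panels, and the Ddit3 lines are up with the fusion protein and down after 20 Gy at every number.

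Among chaperones of the ER lumen, Hspa5 (chr2:34771970-34777547, plus strand) was at 13962, 12472 and 43263 in the untreated libraries, 18658, 14556 and 35787 with the fusion protein, 14603, 14778 and 37585 after 20 Gy and 19429, 20792 and 29349 with both. The 20 Gy libraries differed from the untreated ones of the same number by log2 values of −0.20 to 0.24, and combined library 3 was the lowest of the 4 libraries numbered 3. Dnajb11, a co-chaperone of BiP, was at 1305, 1739 and 2648 in the untreated libraries, 2355, 1919 and 3298 with the fusion protein, 1464, 1629.7 and 2607 after 20 Gy and 2429, 2418 and 2905 with both. Dnajb9, another co-chaperone, which restrains IRE1, was at 1269, 1599 and 3124 in the untreated libraries, 1063, 1226 and 1825 with the fusion protein, 979, 1003 and 1874 after 20 Gy and 1006, 1541 and 1726 with both. Dnajb11 was higher than untreated at 3 of 3 numbers with the fusion protein (0.44 ± 0.30, limma adjusted p = 0.847) and with both (0.50 ± 0.30, 0.556), and Dnajb9 was lower at 3 of 3 numbers with the fusion protein (−0.47 ± 0.38, 0.897) and after 20 Gy (−0.59 ± 0.38, 0.757). The groups overlapped in each case, and none of these differences passed.

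Dnajc3, a co-chaperone that also inhibits kinases of the translation factor eIF2, was at 1686, 2224 and 2579 in the untreated libraries, 1903, 1932 and 1825 with the fusion protein, 1735, 1893 and 2700.0 after 20 Gy and 1588, 1896 and 1549 with both. Sdf2l1, a partner of Dnajb11, was at 448, 508 and 561 in the untreated libraries, 533, 467 and 622 with the fusion protein, 579, 581 and 695 after 20 Gy and 484, 453 and 520.5 with both. All 3 20 Gy values of Sdf2l1 lay above all 3 untreated ones and above all 3 combined ones. Its log2 fold change was 0.29 ± 0.17 after 20 Gy (limma adjusted p = 0.743) and −0.34 ± 0.17 for combined against 20 Gy (0.636), and its interaction term was −0.44 ± 0.25 (0.99995). Dnajc3 differed by −0.31 ± 0.21 for combined against 20 Gy (limma adjusted p = 0.796). Hsp90b1, Calr, Canx, Hyou1, Creld2 and Manf differed from untreated by log2 values between −0.06 (Hyou1, combined) and 0.47 (Creld2, combined). The disulfide isomerases Pdia3, Pdia4 and Pdia6 differed by −0.077 to 0.34. Pdia4 with the fusion protein lay at 4301 to 4323, above the untreated range of 3034 to 4242.

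Of the genes of ER-associated degradation, Sel1l, the adaptor of HRD1, had the smallest unadjusted p of the lower genes in 2 of the 5 comparisons. It was at 2253, 1943 and 1971 in the untreated libraries, 1726, 1747 and 1482 with the fusion protein, 2262, 2221 and 2188 after 20 Gy and 1906, 1655 and 1617 with both. The fusion protein and combined groups both lay wholly below the untreated and below the 20 Gy libraries. The log2 fold change was −0.32 ± 0.14 with the fusion protein (limma adjusted p = 0.585), −0.25 ± 0.14 with both (0.525) and −0.37 ± 0.14 for combined against 20 Gy (0.423). Syvn1, which encodes HRD1, was at 765, 618 and 1039 in the untreated libraries, 696, 1254 and 1246 with the fusion protein, 656, 590.4 and 980.3 after 20 Gy and 696, 761 and 815 with both. Derl1, a channel component of the same complex, was at 1143, 1395 and 1744 in the untreated libraries, 1056, 1282 and 1335 with the fusion protein, 944, 1099 and 1442 after 20 Gy and 1198, 1233 and 1233 with both. Neither separated the groups, and Derl1 was lower after 20 Gy at 3 of 3 numbers (−0.30 ± 0.20, limma adjusted p = 0.778). Derl3 was at 22.5, 12.5 and 1.03 in the untreated libraries, 10.6, 13.2 and 8.79 with the fusion protein, 16.7, 11.8 and 11.8 after 20 Gy and 18.9, 24.4 and 13.8 with both. All 3 combined values of Derl3 lay above all 3 fusion protein ones (0.74 ± 0.78, limma adjusted p = 0.99974), at 24.4 normalized counts or less. Edem1, which directs misfolded glycoproteins to degradation, ranged from 2009 to 3933.

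In the translocon, through which new proteins enter the ER, Sec61b was at 638, 760.1 and 727 in the untreated libraries, 1022, 733 and 949 with the fusion protein, 888, 929 and 1184 after 20 Gy and 984, 976 and 1013 with both. The 20 Gy and combined values all lay above the 3 untreated ones. Of the 32 genes it had the smallest p for 20 Gy (0.49 ± 0.18, limma adjusted p = 0.721) and for combined against untreated (0.49 ± 0.18, adjusted p = 0.274), and with the fusion protein it differed by 0.34 ± 0.18 (adjusted p = 0.697). Sec61a1, the channel itself, went the other way, at −0.24 ± 0.32 after 20 Gy and −0.20 ± 0.32 with both (limma adjusted p = 0.904 and 0.877).

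Counted over the group, 2 of 32 genes did not overlap between fusion protein and untreated (10.6% of all genes), 2 between 20 Gy and untreated (11.5%), 4 between combined and untreated (17.8%), 2 between combined and 20 Gy (17.9%) and 1 between combined and fusion protein (8.29%). The genes' share was below the background in each of the 5. These are the genes named above.

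The genes also differed between library numbers. Library 3 was the highest of its 3 libraries for 28 of 32 genes in untreated (38.4% of all genes), 25 with the fusion protein (39.0%), 30 after 20 Gy (41.6%) and 24 with both (32.4%). It was the highest in all 4 groups for 21 of 32 genes, against 13.2% of all genes tested. In log2(normalized count + 1), library 3 exceeded the mean of libraries 1 and 2 by a median over the 32 genes of 0.76 in untreated, 0.60 with the fusion protein, 0.87 after 20 Gy and 0.19 with both, where the medians over all genes were 0.028, 0.026, −0.057 and 0.036. These gaps are a description, since the number was chosen after its values were seen.

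The gap was largest in the ATF4 arm. For Chac1 it was 4.56 in untreated, 2.94 with the fusion protein, 2.91 after 20 Gy and 1.12 with both. For Trib3 it was 2.91 in untreated, 2.31 with the fusion protein, 2.32 after 20 Gy and 1.48 with both. For Atf4 itself it was 1.54 in untreated, 1.43 with the fusion protein, 1.88 after 20 Gy and 0.88 with both. All 4 targets of that arm were highest in library 3 in all 4 groups, with a median over the 4 of 2.12 (mean of the 4 groups), against 0.82 for the 6 sensors and transcription factors, 0.62 for the 11 lumen chaperones, 0.41 for the 3 disulfide isomerases, 0.39 for the 2 translocon genes and 0.38 for the 6 degradation genes. Hspa5 had a mean gap of 1.18, Ern1 of 1.19 and Ddit3 of 1.00, while Sel1l (−0.12) and Derl3 (−1.09) were lower in library 3 on average and in every group below the mean of the other 2 libraries.

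The melanoma and B cell markers given above moved with the library number as well. All 10 melanoma markers were highest in library 3 in all 4 groups, with median gaps of 5.65, 6.86, 7.19 and 2.81 in the order untreated, fusion protein, 20 Gy and combined, and the 15 tested B and plasma cell markers had median gaps of −4.81, −4.24, −4.34 and −1.27. The smallest gaps of either list and of Hspa5, Chac1 and Atf4 were those of the combined group. Tyrp1, which makes pigment in melanocytes, stood in library 3 of each group at 464, 1147, 4718 and 203 normalized counts in that order, and Hspa5 at 43263, 35787, 37585 and 29349. Jchain, a gene of plasma cells, was at 8.28 in untreated library 3 and at 951 and 20.0 in libraries 1 and 2. The part of these cells in the gaps was not tested. Without the 4 libraries numbered 3, limma again called 0 of 32 genes in each comparison.

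**Figure D4:**
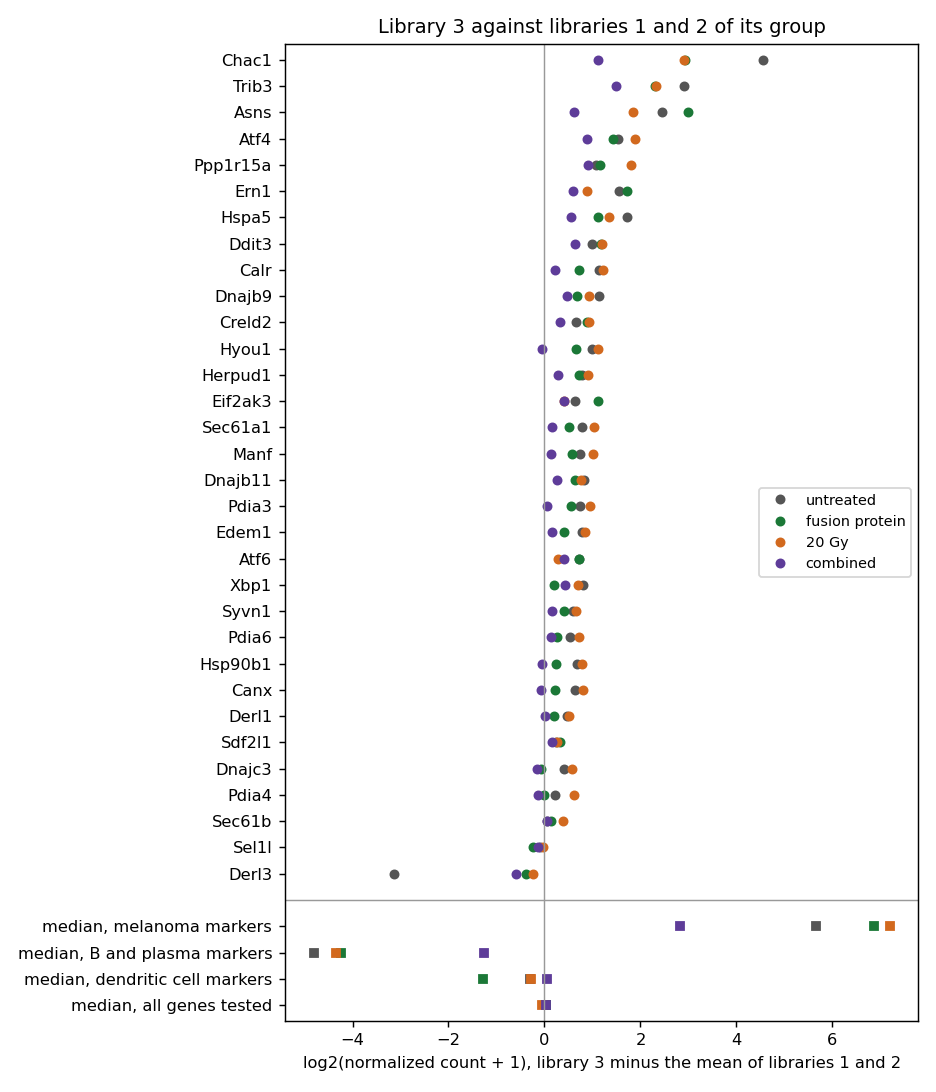
Library 3 minus the mean of libraries 1 and 2 of its group, in log2(normalized count + 1), for each of the 32 genes in the 4 groups (circles, ordered by their mean) and as medians for melanoma, B and plasma cell and dendritic cell markers and all genes tested (squares). Chac1, Trib3, Asns and Atf4 lie at the top with mean gaps of 1.43 to 2.88, and the median of all genes lies near 0.

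**Figure D5:**
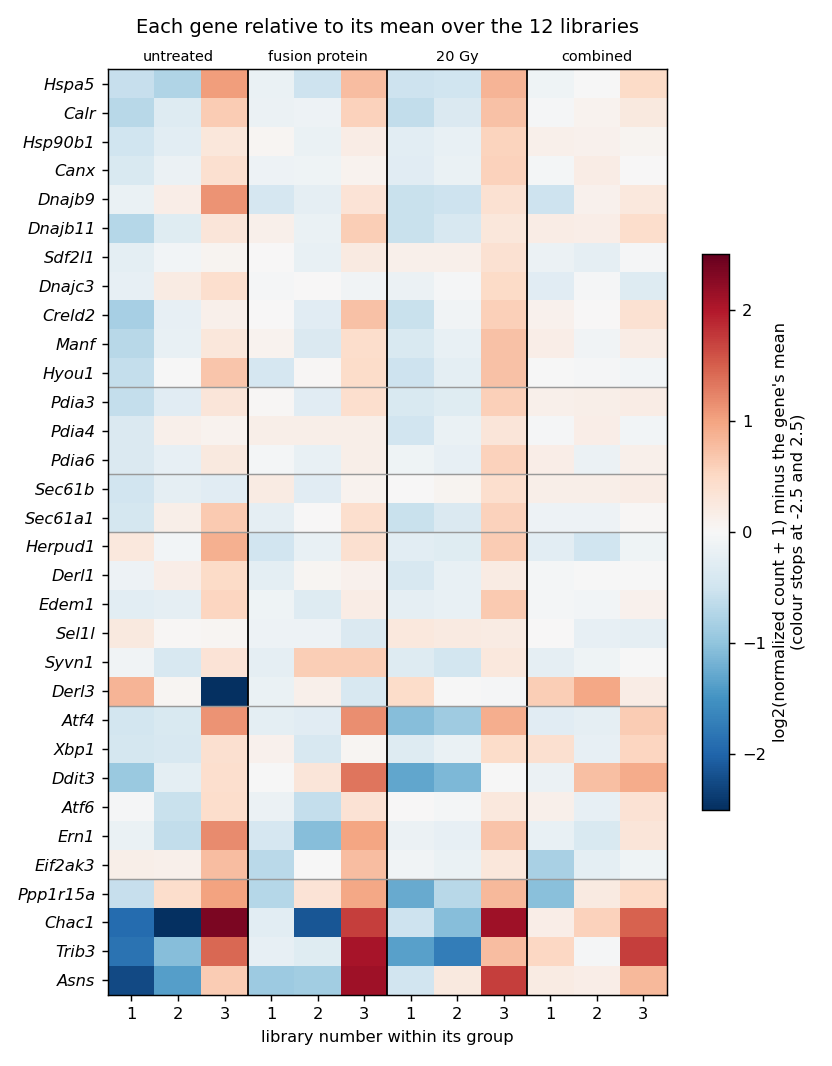
Log2(normalized count + 1) of each gene minus its mean over the 12 libraries (colour, stopping at −2.5 and 2.5), with genes by role in rows and libraries by group in columns. The column of library 3 is the reddest of its group for most genes in each of the 4 groups, most clearly for Chac1, Trib3, Asns and Atf4, while Derl3 is blue in untreated library 3.

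Other genes of the same pathways were taken from lists that hold none of the 32. Of 19 tested further sensors and regulators, 1 rose, Eif2ak2, which encodes PKR, the kinase that phosphorylates eIF2 on binding double-stranded RNA. Eif2ak2 was at 1206, 758 and 889.7 in the untreated libraries, 4348, 2288 and 3221 with the fusion protein, 1243, 1104 and 1450.1 after 20 Gy and 5011, 3571 and 4429 with both. The fusion protein and combined groups lay wholly above the untreated and 20 Gy groups. Its log2 fold change was 1.77 ± 0.26 (SE) for fusion protein against untreated, 2.20 ± 0.26 for combined against untreated and 1.77 ± 0.26 for combined against 20 Gy (limma adjusted p = 0.00926, 0.00126 and 0.00569), and 0.43 ± 0.26 after 20 Gy (adjusted p = 0.741). Of 22 further translocation genes, 31 folding enzymes and lectins, 22 degradation genes, 25 cytosolic and mitochondrial chaperones and 37 ATF4 and amino acid response genes tested, 0 passed in any comparison. Beside the counts of these lists, limma called 0.744% of all genes for fusion protein against untreated. It called 1.4% for combined against untreated and 1.03% for combined against 20 Gy.

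With the block, where limma called 7.73% of all genes for combined against untreated, it called 5 of the 25 cytosolic and mitochondrial chaperones there, all higher: Hspa1a (1.63 ± 0.23, adjusted p = 0.00136), Hspa1b (1.77 ± 0.31, 0.00541), Hspe1, Ahsa1 and Chordc1. Hspa1a and Hspa1b are the stress-induced HSP70 genes of the cytosol, near-identical copies whose reads may be split between them. Both were also called after 20 Gy (1.80 ± 0.23, adjusted p = 0.0374, and 1.86 ± 0.31, 0.0438) and with the fusion protein (1.33 ± 0.23, 0.00784, and 1.35 ± 0.31, 0.0365). Of the 37 ATF4 and amino acid response genes, 4 were called higher with the block for combined against untreated, beside 7.73% of all genes: Nupr1, a stress-induced chromatin protein (2.73 ± 0.29, limma adjusted p = 0.00015), Cebpb, a partner of CHOP (1.10 ± 0.18, 0.0037), Ddit4, an inhibitor of mTORC1 (1.05 ± 0.27, 0.0354), and Atf5 (1.29 ± 0.33, 0.0384). Nupr1 and Cebpb were also called higher with the fusion protein (3.29% of all genes). Nupr1 alone of the 37 was called after 20 Gy (0.383%) and for combined against 20 Gy (4.56%), both higher. In the latter comparison the numbers were not taken to pair the libraries. Of the folding enzymes and lectins, Uggt1, the glucosyltransferase that marks unfolded glycoproteins, was lower for combined against untreated (−0.65 ± 0.14, limma adjusted p = 0.0173), as was Stt3b. Pdia5 was lower with the fusion protein (−1.54 ± 0.33, limma adjusted p = 0.0248). It was also called lower for combined against 20 Gy, where the numbers were not taken to pair the libraries. In the other lists, the blocked calls for combined against untreated were Srp19, of the signal recognition particle (0.75 ± 0.16, limma adjusted p = 0.0157), and Sec61g, of the translocon (0.78 ± 0.20, 0.0354), higher among 22 translocation genes, Ube2j1, a ubiquitin-conjugating enzyme of the ER (−0.73 ± 0.19, 0.0414), lower among 22 degradation genes, and Creb3l2 (−1.14 ± 0.26, 0.0235), lower among 19 regulators, of which Eif2ak2 was called higher. Of the 37 further ATF4 genes, 19 were highest in library 3 in all 4 groups (51.4%), against 13.2% of all genes tested. The share was lower in the other lists. It was 31.8% of the translocation genes, 27.3% of the degradation genes and 24.0% of the cytosolic and mitochondrial chaperones. For the regulators it was 21.1%, and for the folding enzymes and lectins 16.1%.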

How the data were processed

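RNA of sorted CD45+ CD11c+ tumour cells was sequenced in 12 libraries, 3 in each of 4 groups, with a stranded total RNA kit for low input, per the labels' protocols. Per the submitters' processing notes, the authors used FastQC, Trimmomatic, STAR, featureCounts and DESeq2 on build mm10. The sources used here give no versions, settings or strand for the counting. The deposited signal values are the authors' DESeq2-normalized counts. Dividing each column by its smallest positive value gave whole reads within 0.001 in 100% of values, and edgeR 4.0.16 and DESeq2 1.42.0 were run on these reads as alternatives. Reads in genes numbered 14462032 to 23985496 a library, which limits the precision of the lowest genes.

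Symbols came from GENCODE vM21 and promoters from RefSeq. The main test was limma 3.58.1 with a variance trend on log2(normalized count + 1), all 12 libraries in 4 groups, for the 18274 genes with at least 10 in at least 3 libraries, two-sided, adjusted by Benjamini-Hochberg over all of them at 0.05 (8 residual and 3.313 prior degrees of freedom). The ± after a log2 fold change is its SE. Values in every library are given for Hspa5, Ddit3, Atf4, Xbp1 and Derl3, for genes past the threshold and, where fewer than 3 pass, for the 3 of smallest p in each direction, and also for Chac1, chosen after its values were seen. Of each list of other pathway genes, those past the threshold and some of smallest p are named. The genes and lists were chosen with earlier results of these data known.

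As an alternative, limma was run with the library number, which the labels leave undefined, as a block (6 residual degrees of freedom). Residuals of libraries with the same number correlated at 0.473 to 0.621 for fusion protein against untreated, 0.156 to 0.496 for 20 Gy, 0.334 to 0.389 for combined against untreated and 0.410 to 0.484 for combined against fusion protein, all over 0.1, so the numbers were taken to pair the libraries there. They were not for combined against 20 Gy, with a range of 0.0095 to 0.505. Residuals of 20 Gy library 2 correlated more with untreated library 1 (0.351) than with untreated library 2 (0.156). The pairing is thus least sure for the 20 Gy group. The block is 1 fit over all 12 libraries and assumes the pairing in every group. Other alternatives changed the pseudocount (0.5 or 10), the filter (none, or 50), the scaling (TMM), the libraries and the covariates. The scripts were tested on simulated data.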

Additional observations from a re-analysis of the deposited data

How the results depend on the processing

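With 3 libraries a group, intervals without the block include a log2 fold change of 1 for many genes, Hspa5 among them, and the lowest genes (Chac1, Trib3, Asns, Derl3) rest on counts near the filter. The count of genes called stayed at 0 of 32 in all 5 comparisons and the interaction under pseudocounts of 0.5 and 10, no filter, a minimum of 50, edgeR, DESeq2, TMM scaling, fits of only the groups compared (not made for the interaction), leaving out each library in turn without the block, leaving out the 4 libraries numbered 3, and leaving out 20 Gy libraries 1 and 2 with combined library 1. Leaving out single libraries did turn the median direction: for fusion protein against untreated, 13 of 32 fold changes were above 0 without untreated library 1 and 25 without untreated library 3.

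With the replicate block the counts were 1 for fusion protein against untreated (Ddit3), 3 for combined against untreated (Ddit3, Herpud1, Eif2ak3) and 1 for combined against 20 Gy (Ddit3, where the numbers were not taken to pair the libraries). The shares of all genes called were 3.29%, 7.73% and 4.56%. Each library left out in turn with the block gave 0 to 1, 0 to 3 and 1 to 3 in that order. Of all genes these fits called 1.26% to 4.12%, 3.15% to 9.02% and 2.16% to 4.57%. The block with TMM scaling gave 1, 2 and 2, beside 2.88%, 6.77% and 4.7% of all genes. With the B and plasma cell level as a covariate the counts were 3, 7 and 3, beside 3.12%, 6.1% and 3.72% of all genes. Trib3, Asns, Dnajb11, Chac1, Pdia3 and Creld2 were among the genes called. With the melanoma level as a covariate, the counts were 2 for combined against untreated (Herpud1, Eif2ak3) and 4 for combined against 20 Gy (Ddit3, Trib3, Atf4, Dnajb11). Of all genes this fit called 5.53% and 3.81%. The melanoma covariate was chosen after seeing the data, as were the block with TMM and with libraries left out. Why these covariates and the block change the calls was not tested.

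Many refits of the named fold changes could not change direction. Leaving out a library of a group outside the comparison keeps the fold change, as does the block fitted to all 12 libraries. Of 1361 refits of 36 named fold changes, 1294 kept their direction and side of the threshold, 63 came to pass it and 4 changed sign. The 4 all came from leaving out 20 Gy libraries 1 and 2 and combined library 1, which leaves the 20 Gy group with library 3 alone, assumed to vary like the other groups. The 20 Gy fold changes were then 0.24 for Ddit3, 0.036 for Derl1 and 0.018 for Dnajb9, and the interaction of Derl1 was −0.018. TMM scaling moved the median of all genes to 0.13 for combined against 20 Gy and 0.12 for the interaction, and 26 of 32 genes were then above 0 in the former in place of 21, and 12 in place of 18 after 20 Gy.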
